A study of Mus musculus with 9 samples.

Results

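Mouse cells carry 5 melanocortin receptor genes, *Mc1r* to *Mc5r*, and these were followed along with *Gpr84*, a receptor for medium-chain fatty acids. A gene was followed through its own probe set on the array, the set of probes that the platform's annotation gives to that symbol alone. Each of the 6 genes had 1 such probe set, so 6 of the 19938 genes with a probe set of their own were followed, and no member was dropped for low signal. *Mc5r* and *Gpr84* were chosen by their values on these same arrays: the study had listed them among genes induced by TNF-α and lower in the knock-down, so their differences are given as a description with no test. *Mc1r*, *Mc2r*, *Mc3r* and *Mc4r* came in as the rest of the family.

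RNA of 3T3 cells, mouse embryonic fibroblasts that grow without limit in culture, was hybridised to 9 Affymetrix Mouse Gene 1.0 ST arrays in 3 groups of 3. The first group was Trap-80 knock-down cells given 5 ng/ml TNF-α for 1 h, the second was wild-type cells given the same dose for the same time, and the third was unstimulated wild-type cells. Knock-down cells carried a stably integrated retroviral shRNA against Trap-80 (the Mediator subunit encoded by *Med17*) and were grown as clones, and the wild-type cells carried an irrelevant shRNA, so all 3 groups expressed an shRNA. TNF-α is an inflammatory cytokine that activates the transcription factor NF-κB. Unstimulated knock-down cells were not analysed here, so the knock-down's effect at rest cannot be told apart from its effect on the response, and the effect of the knock-down cannot be told apart from a property of the clone.

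Melanocortin receptors are class A G-protein-coupled receptors that bind peptides cut from pro-opiomelanocortin and raise cyclic AMP through Gs and adenylyl cyclase. Their tissues differ: Mc1r sets pigment type in melanocytes, Mc2r is the corticotropin receptor of the adrenal cortex, Mc3r and Mc4r act in the brain in energy balance, and Mc5r is best known from exocrine glands such as the sebaceous gland. Gpr84 signals through Gi, which lowers cyclic AMP, and is known mainly from macrophages and neutrophils, where inflammatory stimuli induce it.

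The RefSeq promoter table (build GRCm38.p6, 250 bases before to 50 after the gene's start) held 3 of the 6 genes. They are shown because *Gpr84* was higher in stimulated wild-type cells while *Mc1r* and *Mc3r* were not, and because NF-κB binds κB sites in DNA. The *Gpr84* window lies at chr15:103310389-103310688 on the minus strand, the *Mc1r* window at chr8:123406832-123407131 on the plus strand and the *Mc3r* window at chr2:172248242-172248541 on the plus strand. Capitals mark matches, on either strand, to a loose κB core, GGG and CC with any 5 bases between them.
Gpr84: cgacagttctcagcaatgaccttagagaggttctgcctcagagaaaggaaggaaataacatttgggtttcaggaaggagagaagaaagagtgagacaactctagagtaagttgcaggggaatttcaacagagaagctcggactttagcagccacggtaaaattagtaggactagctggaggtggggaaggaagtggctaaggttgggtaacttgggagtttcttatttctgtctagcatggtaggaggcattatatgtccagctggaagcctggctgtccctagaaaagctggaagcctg
Mc1r: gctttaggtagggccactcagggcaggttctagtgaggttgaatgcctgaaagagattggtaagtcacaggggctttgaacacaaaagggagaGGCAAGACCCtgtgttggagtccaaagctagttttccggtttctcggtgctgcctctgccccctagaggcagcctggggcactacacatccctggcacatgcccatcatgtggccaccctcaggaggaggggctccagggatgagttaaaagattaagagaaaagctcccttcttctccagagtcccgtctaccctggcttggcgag
Mc3r: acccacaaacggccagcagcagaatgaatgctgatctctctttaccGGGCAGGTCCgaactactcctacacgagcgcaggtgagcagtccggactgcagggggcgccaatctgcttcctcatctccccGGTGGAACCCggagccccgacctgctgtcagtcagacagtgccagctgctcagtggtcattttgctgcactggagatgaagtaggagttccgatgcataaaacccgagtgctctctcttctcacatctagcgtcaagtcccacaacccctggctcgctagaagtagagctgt

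The loose core was present once in the *Mc1r* window, at position -157 from the start, and at 2 places in the *Mc3r* window, at -204 and -122, and it had no match in the *Gpr84* window. It is a common string, found in 50.8% of the 32851 promoters of the table. The stricter κB string, GGG and TTTCC with any 2 bases between them (1.63% of promoters), the AP-1 string TGANTCA (7.81%), the cyclic AMP response element TGACGTCA (1.79%) and the TATA string TATAAA (13.6%) had no match in the 3 windows on either strand. Each match of the stricter string is also a match of the loose one. The *Gpr84* window holds gggaatttca, which differs from both κB strings only in its last base, and near matches were not counted in any promoter. Exact strings in so short a window cannot show whether a gene has a κB site. The paper looked for κB motifs with matrices over a much wider region around the start.

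Values are log2 signals made by RMA, a method that subtracts background, brings all arrays to a common distribution and reduces the probes of a set to 1 value, so 1 unit is a doubling of signal. Differences are between group means on this scale, with standard errors (SE) from limma, a linear model that pools information on the spread over all probe sets. Array medians lay between 4.47 and 4.59 and array-to-array correlations within a group between 0.993 and 0.997, and no array stood apart. *Med17* had 6.35, 6.22 and 6.17 in the knock-down arrays and 7.98, 7.93 and 7.77 in stimulated wild-type arrays, a difference of -1.64 (SE 0.09, limma adjusted p = 4.8e-05), which left 32.0% of the signal. The paper measured a deeper loss of *Trap-80* mRNA by quantitative PCR and could not detect the protein by western blot. The array ratio thus need not equal the share of mRNA left. Every one of 10 fibroblast markers lay above 4.51, the median signal over all probe sets, but in the knock-down *Thy1* rose by 2.09 and *Pdgfra*, a receptor for platelet-derived growth factor, fell by 1.89 on the log2 scale (limma adjusted p = 0.00048 and 9.5e-05), and *S100a4* rose by 0.55 (adjusted p = 0.011). Of all probe sets, 3.36% were higher and 2.6% lower by this test. At an unadjusted p under 0.05, 4 of the 10 fibroblast markers passed for the knock-down, where 17.4% of all probe sets did. The part of these marker differences in the results was not tested.

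*Mc5r* had the widest spread of the family between groups. Its signal was 4.47, 4.41 and 4.18 in the knock-down + TNF-α arrays, 5.71, 6.36 and 6.09 in the wild-type + TNF-α arrays and 5.21, 5.34 and 5.18 in the unstimulated wild-type arrays. No value of one group fell within the range of another, and the order was stimulated wild type, then unstimulated wild type, then knock-down. The means were 4.36 ± 0.15, 6.05 ± 0.32 and 5.24 ± 0.08 in the same order of groups as the arrays (SD, n = 3 each).

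After 1 h of TNF-α, *Mc5r* was 0.81 higher in wild-type cells than in unstimulated ones (SE 0.15), a signal 1.76 times as high. The lowest stimulated array exceeded the highest unstimulated array by 0.38. With arrays of the same number set against each other, the differences were 0.50, 1.02 and 0.92, so the arrays numbered 1 had the smallest. In size this was the 66th highest difference among the 23410 probe sets with a gene.

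In stimulated knock-down cells *Mc5r* was 1.70 lower than in stimulated wild-type cells (SE 0.15), or 30.8% of their signal. A gap of 1.24 separated the nearest arrays of both groups, and the same-numbered differences were -1.24, -1.95 and -1.91. This was the 48th lowest difference of 23410. The 2 comparisons use the same stimulated wild-type arrays, so a high value there enters both.

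Set against unstimulated wild-type cells, the stimulated knock-down cells were also lower in *Mc5r*. The difference was -0.89 (SE 0.15), 54.1% of the unstimulated signal, with a gap of 0.71 between the nearest arrays. The knock-down and TNF-α both differ in this comparison, so their parts cannot be told apart, and the fall below the resting level is a statement about stimulated knock-down cells only.

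*Gpr84* was higher with TNF-α in wild-type cells as well, but its knock-down arrays lay near the unstimulated ones. The signal was 4.11, 4.01 and 4.05 in the knock-down + TNF-α arrays, 4.31, 4.51 and 4.84 in the wild-type + TNF-α arrays and 3.61, 4.10 and 3.85 in the unstimulated wild-type arrays. The stimulated wild-type arrays lay above both other groups without overlap, whereas the knock-down and unstimulated arrays overlapped each other. Group means were 4.06 ± 0.05 in the knock-down, 4.55 ± 0.27 in stimulated wild type and 3.86 ± 0.24 in unstimulated wild type (SD, n = 3 each).

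With TNF-α the *Gpr84* signal of wild-type cells was 0.70 higher than unstimulated (SE 0.15), or 1.62 times as high, the 84th highest difference. Stimulated knock-down cells were 0.50 below stimulated wild-type cells (SE 0.15), which left 70.8% of the signal and was the 618th lowest difference. Both gaps between the nearest arrays were narrow, 0.21 for TNF-α and 0.20 for the knock-down. Arrays of the same number differed by 0.70, 0.41 and 0.99 for TNF-α and by -0.20, -0.50 and -0.79 for the knock-down, so array pair 3 had the largest size in both.

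Against unstimulated wild-type cells the stimulated knock-down cells differed in *Gpr84* by 0.20 (SE 0.15), with overlapping arrays. Here *Mc5r* and *Gpr84* parted: the knock-down mean of *Mc5r* was below the resting wild-type mean, and that of *Gpr84* was not. The resting mean of *Gpr84*, 3.86, was below the median signal of 4.51, and that of *Mc5r*, 5.24, was above it. The room to show a fall below rest may thus have differed, which was not tested.

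**Figure D1:**
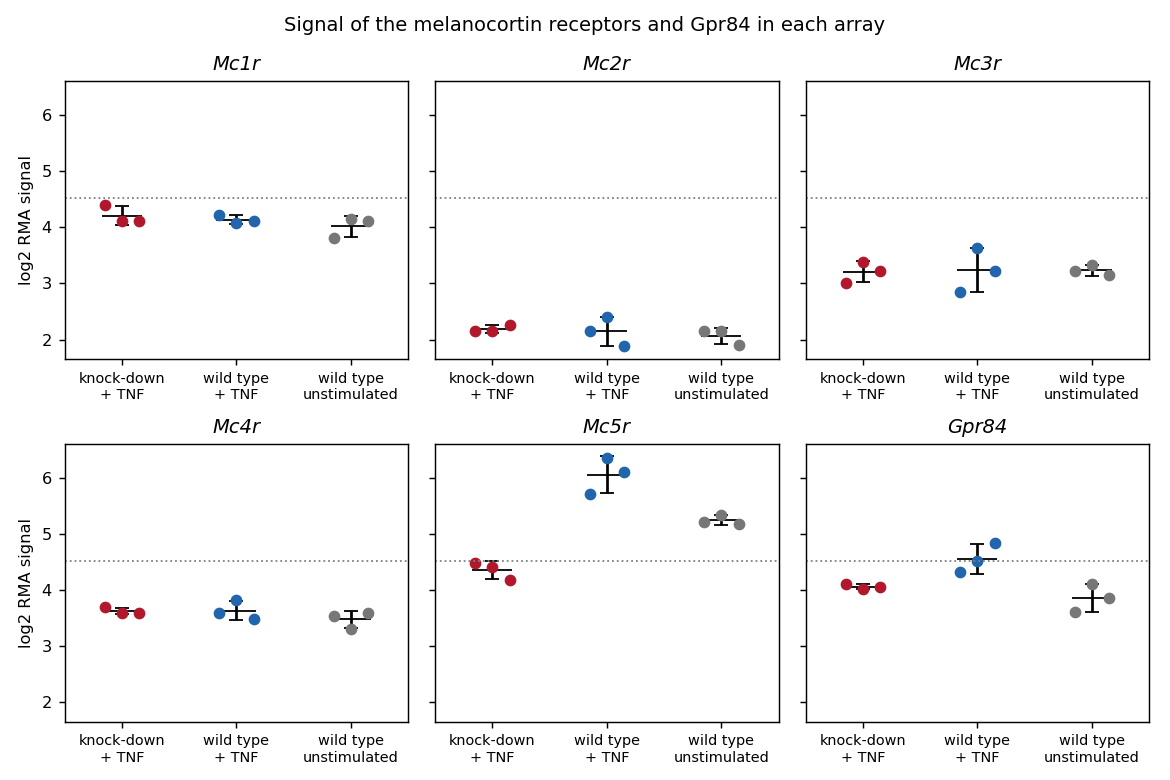
Log2 RMA signal (vertical axis) of each of the 6 genes in the 9 arrays, with knock-down + TNF-α at the left, wild type + TNF-α in the middle and unstimulated wild type at the right of each panel. Points are arrays, bars are the mean ± SD and the dotted line is the median signal over all probe sets (4.51); *Mc5r* shows 3 separate groups, *Gpr84* has only the stimulated wild type apart, and the groups of the other 4 genes are not separate.

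The groups of the other melanocortin receptors were not separate, although in *Mc4r* the knock-down and unstimulated arrays met only at a value they shared. *Mc1r*, the melanocyte receptor, had 4.40, 4.11 and 4.11 in the knock-down + TNF-α arrays, 4.22, 4.08 and 4.11 in the wild-type + TNF-α arrays and 3.80, 4.14 and 4.11 in the unstimulated arrays. Its differences were 0.12 for TNF-α (95% interval -0.14 to 0.38, limma adjusted p = 0.83), 0.07 for the knock-down (-0.19 to 0.32, adjusted p = 0.84) and 0.19 for knock-down + TNF-α against unstimulated wild type (-0.07 to 0.45, adjusted p = 0.42). The low unstimulated array 1 stood apart from the rest of its group by more than the groups differed.

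*Mc2r*, the corticotropin receptor, also showed no order of the groups. Its signal was 2.14, 2.14 and 2.27 in the knock-down + TNF-α arrays, 2.14, 2.41 and 1.88 in the wild-type + TNF-α arrays and 2.14, 2.16 and 1.91 in the unstimulated arrays. The differences were 0.07 for TNF-α (-0.22 to 0.37, limma adjusted p = 0.91) and 0.04 for the knock-down (-0.26 to 0.34, adjusted p = 0.92). *Mc2r* lies next to *Mc5r* on the chromosome. The stimulated and unstimulated wild-type arrays of *Mc2r* overlapped, and those of *Mc5r*, which was chosen by its values, did not. With a mean of 2.13 and 4 arrays at the same value, the *Mc2r* probe set may be too dim to show a response.

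*Mc3r*, a receptor of the brain, had 3.01, 3.39 and 3.21 in the knock-down + TNF-α arrays, 2.85, 3.63 and 3.21 in the wild-type + TNF-α arrays and 3.21, 3.33 and 3.15 in the unstimulated arrays. Its spread was widest in stimulated wild type, and the 3 group means lay within 0.03 of each other. The differences were 0.00 for TNF-α (-0.40 to 0.40, limma adjusted p = 1.0) and -0.03 for the knock-down (-0.43 to 0.37, adjusted p = 0.97).

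*Mc4r*, the other brain receptor and a regulator of food intake, had 3.70, 3.59 and 3.59 in the knock-down + TNF-α arrays, 3.59, 3.81 and 3.48 in the wild-type + TNF-α arrays and 3.53, 3.31 and 3.59 in the unstimulated arrays. The TNF-α difference was 0.15 (-0.08 to 0.39, limma adjusted p = 0.77), and the knock-down difference was -0.00 (-0.24 to 0.23, adjusted p = 1.00). Over the 4 genes and the 3 comparisons the intervals reached from -0.43 to 0.45, so the arrays bound a change and do not show that there was none.

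Counted over the 6 genes, 2 had no overlap between groups for TNF-α (*Mc5r* and *Gpr84*), where 10.2% of all 23410 probe sets had none. For the knock-down against stimulated wild type the count was again 2, against 20.9% of all probe sets, and for knock-down + TNF-α against unstimulated wild type it was 1 (*Mc5r*), against 23.4%. By the limma test, 3.64% of all probe sets were higher and 4.62% lower in that last comparison. The counts for *Mc5r* and *Gpr84* follow from how they were chosen. Of the 4 genes that were not, 0 had separate groups in any of the 3 comparisons, and 0 passed the limma test. At an unadjusted p under 0.05 the count was also 0, where 7.1% of all probe sets passed for TNF-α, 17.4% for the knock-down and 20.5% for knock-down + TNF-α against unstimulated wild type.

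**Figure D2:**
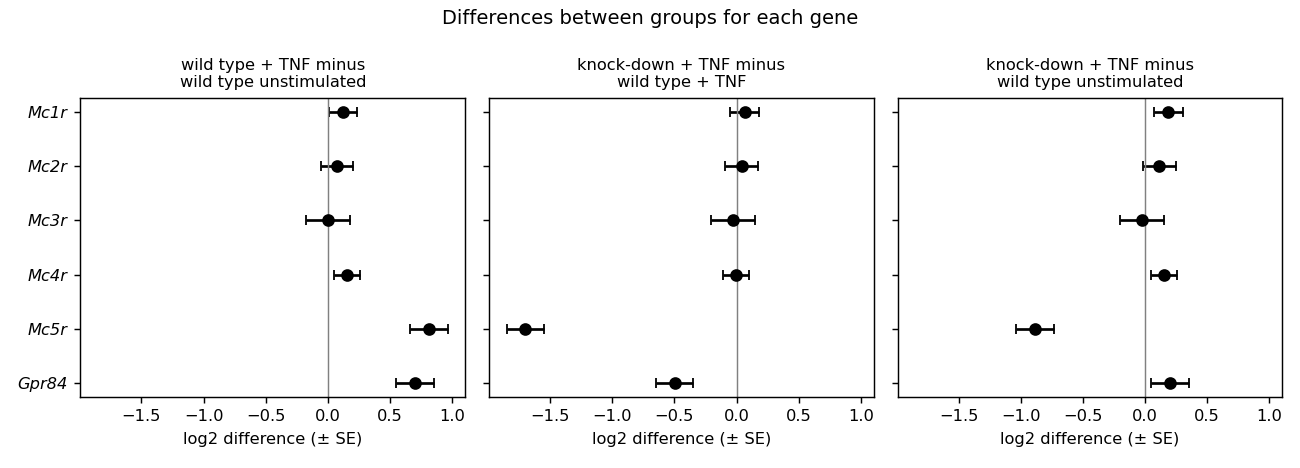
Log2 difference (horizontal axis) ± SE of each gene in the 3 comparisons, named above each panel. *Mc5r* and *Gpr84* lie at 0.81 and 0.70 in the TNF-α comparison and at -1.70 and -0.50 in the knock-down comparison, and the other 4 genes lie within 0.20 of 0 in all 3.

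Several of the dim genes gave exactly the same deposited value in more than 1 array. *Mc1r* and *Mc2r* each had 4 arrays alike to every deposited digit, and *Mc3r* and *Mc4r* each had 3, while *Mc5r* and *Gpr84* had 9 distinct values. Such repeats were common among dim probe sets: 44.7% of those below the median signal had at least 3 arrays alike, against 16.8% of those above it. Why values repeat was not tested. *Mc5r* alone of the 6 had a mean signal above the median over all probe sets, although probe sets differ in brightness and their levels were not compared with each other.

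No gene for the receptors' ligands passed the test. Of 6 listed ligand and processing genes, 5 were measured, and 0 passed the limma test in the TNF-α or the knock-down comparison. At an unadjusted p under 0.05 the counts were 0 and 1 (*Prcp* in the knock-down), where 7.1% and 17.4% of all probe sets passed. *Pomc*, the precursor of all melanocortin peptides, had 3.96 ± 0.07 in knock-down + TNF-α, 4.13 ± 0.43 in wild type + TNF-α and 3.87 ± 0.26 in unstimulated wild type (SD, n = 3 each). *Cpe*, a carboxypeptidase that trims peptide precursors, was bright in every group at 10.95, 10.79 and 10.86. *Pcsk1*, the convertase that cuts pro-opiomelanocortin, was dim in all of them (2.96, 2.84 and 2.87).

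Of 8 listed antagonists and accessory proteins, 7 were measured and 0 passed in either comparison, also without adjustment. Agouti, the secreted antagonist of Mc1r, had 4.70, 4.79 and 4.68 in the 3 groups in the same order. *Mrap*, which Mc2r needs to reach the cell surface, and its relative *Mrap2* lay between 3.14 and 3.67 in every group. Members of this list that are widely expressed, such as *Atrn* (attractin) and *Mgrn1* (mahogunin, a ubiquitin ligase), were brighter at 7.58 to 8.41.

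Downstream of the receptors, 0 of 14 measured genes for adenylyl cyclases and protein kinase A passed in the TNF-α comparison by limma (1 at an unadjusted p under 0.05), where 0.111% of all probe sets were higher and 0.00427% lower. In the knock-down, where 3.36% of all probe sets were higher and 2.6% lower, 1 of the 14 rose and 1 fell. At an unadjusted p under 0.05, 7 of the 14 passed for the knock-down, where 17.4% of all probe sets did. *Prkar2b*, a regulatory subunit of protein kinase A, rose by 0.58 (SE 0.14, adjusted p = 0.047), and *Adcy1*, a calcium-stimulated adenylyl cyclase, fell by 0.58 (SE 0.12, adjusted p = 0.023). The list's median difference was -0.13, against -0.02 over all probe sets tested. With the replicate number as a block, *Adcy7* (-0.60, adjusted p = 0.047) and *Prkar2a* (-0.68, adjusted p = 0.0067) passed as well; without the block their adjusted p was 0.13 for each. The calls for both unblocked genes were fragile: *Prkar2b* lost its call without any one of the 6 arrays compared, with an adjusted p of up to 0.155, and *Adcy1* without stimulated wild-type array 1 or 2 or knock-down array 2 or 3 (up to 0.097).

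Of 10 phosphodiesterases that break down cyclic AMP, 0 passed for TNF-α (1 at an unadjusted p under 0.05, where 7.1% of all probe sets passed). In the knock-down 1 fell, where 2.6% of all probe sets were lower (1 of the 10 at an unadjusted p under 0.05, where 17.4% of all probe sets passed). *Pde7a* fell by 0.36 (SE 0.07, limma adjusted p = 0.020), and lost the call without stimulated wild-type array 1 or 3 or knock-down array 1 or 2, with an adjusted p of up to 0.075. *Pde4b*, a phosphodiesterase of inflammatory cells, had 5.41 ± 0.26 in knock-down + TNF-α, 5.29 ± 0.24 in wild type + TNF-α and 4.80 ± 0.11 in unstimulated wild type, and did not pass in either comparison.

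Genes that cyclic AMP is known to induce through CREB did not pass for TNF-α or for the knock-down without the replicate block. Of 16 measured CREB family, coactivator and cyclic AMP-responsive genes, 0 passed for TNF-α and 0 for the knock-down. At an unadjusted p under 0.05 the counts were 4 and 1, where 7.1% and 17.4% of all probe sets passed. The 4 were all higher with TNF-α: *Nr4a1* (1.37), *Sik1* (1.07), *Nr4a2* (0.51) and *Fos* (0.26). The median TNF-α difference of the list was 0.01. *Sik1*, a salt-inducible kinase, had 9.34 ± 0.35 in knock-down + TNF-α, 8.79 ± 0.48 in wild type + TNF-α and 7.73 ± 0.29 in unstimulated wild type. It passed for TNF-α (1.07) and for the knock-down (0.55) only with the replicate number as a block, at limma adjusted p = 0.0038 and 0.010, against 0.37 and 0.33 without it. Unlike *Mc5r*, its mean was highest in the knock-down.

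On the side of Gi, through which Gpr84 signals, *Gnai1* rose in the knock-down. It had 9.67 ± 0.23 in knock-down + TNF-α, 8.45 ± 0.06 in wild type + TNF-α and 8.55 ± 0.08 in unstimulated wild type, a knock-down difference of 1.22 (SE 0.11, limma adjusted p = 0.00048) that passed without any one array. It was the single gene of 11 Gi, arrestin and receptor kinase genes that passed for the knock-down, where 3.36% of all probe sets were higher. At an unadjusted p under 0.05, 4 of the 11 passed for the knock-down, where 17.4% of all probe sets did. For TNF-α 0 of the 11 passed, also without adjustment. *Gnai2* (0.38), *Grk4* (0.41) and *Grk5* (0.38) passed for the knock-down with the block (adjusted p = 0.015, 0.030 and 0.029), and had 0.19, 0.058 and 0.24 without it.

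**Figure D3:**
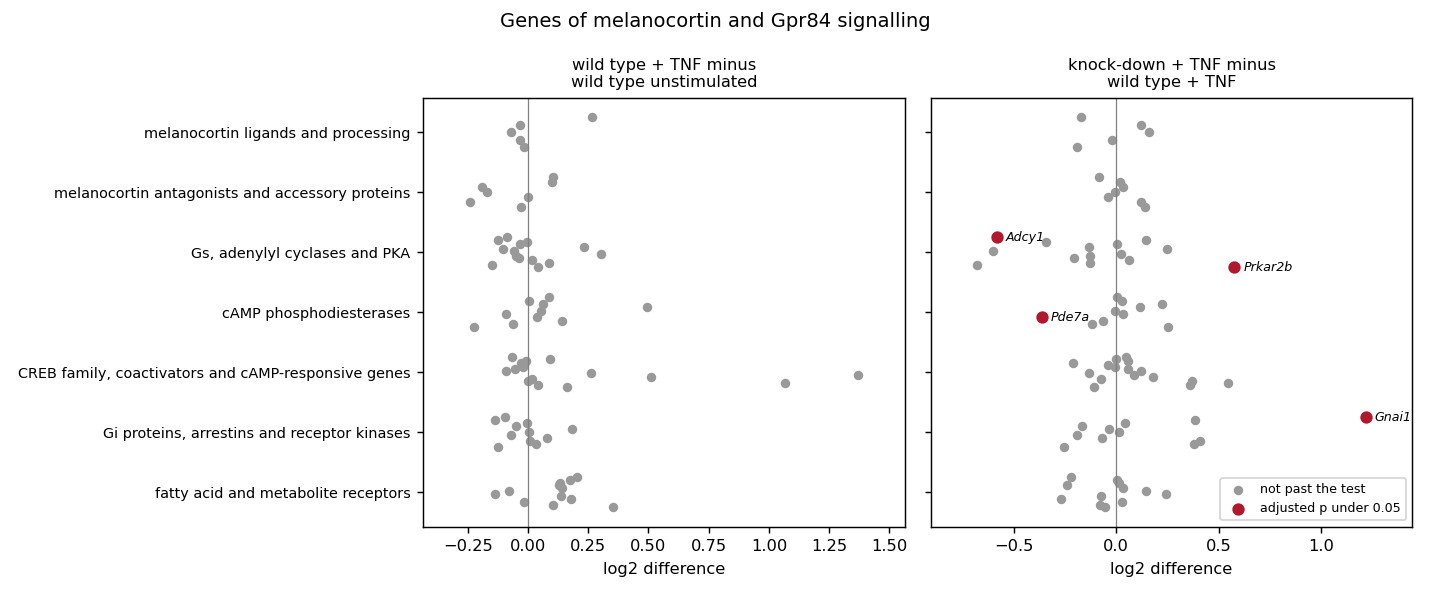
Log2 difference (horizontal axis) of each measured gene in 7 lists of melanocortin and Gpr84 signalling, for TNF-α in wild-type cells at the left and for the knock-down under TNF-α at the right. Each point is a gene and red points passed the limma test at an adjusted p under 0.05; 0 passed at the left and 4 at the right.

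Other receptors for fatty acids and metabolites, the functional relatives of Gpr84, were dim and did not pass. All 12 lay below the median signal of 4.51. For TNF-α 0 passed (0 unadjusted, against 7.1% of all probe sets), and for the knock-down 0 passed (1 unadjusted, against 17.4%). The TNF-α differences ran from -0.14 (*Sucnr1*, the succinate receptor) to 0.35 (*Gpr132*). The *Gpr84* difference of 0.70 lies outside that range, but *Gpr84* was chosen by its values on these arrays and the 12 were not.

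The sequence relatives of the melanocortin receptors, the lysophospholipid and cannabinoid receptors and *Gpr3*, *Gpr6* and *Gpr12*, are grouped with them in the MECA branch of class A. Of 13 measured, 0 passed for TNF-α (2 at an unadjusted p under 0.05, where 7.1% of all probe sets passed). In the knock-down 2 fell, where 2.6% of all probe sets were lower. At an unadjusted p under 0.05, 4 of the 13 passed for the knock-down, where 17.4% of all probe sets did. *S1pr3*, a sphingosine 1-phosphate receptor, had 8.97 ± 0.15 in knock-down + TNF-α, 10.37 ± 0.36 in wild type + TNF-α and 9.71 ± 0.10 in unstimulated wild type, and fell by 1.41 in the knock-down (SE 0.16, limma adjusted p = 0.0015). Its group means thus stood in the same order as those of *Mc5r*. *S1pr1* fell by 0.96 (adjusted p = 0.012, and 0.056 without knock-down array 2), with a TNF-α difference of 0.08, and *Lpar2* passed only with the block (-0.51, adjusted p = 0.032 with it and 0.074 without).

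Of 133 other class A receptors, 110 lay below the median signal. For TNF-α 0 passed (15 at an unadjusted p under 0.05, where 7.1% of all probe sets passed). The TNF-α differences ran from -0.52 (*Npy1r*) to 0.84 (*Bdkrb1*, a bradykinin receptor of inflamed tissue). *Bdkrb1* is thus the only one of these 133 and of the 13 relatives with a TNF-α difference as large as that of *Mc5r* (0.81), and its stimulated arrays ran from 6.34 to 7.65 and its unstimulated ones from 5.67 to 6.37. In the knock-down 2 of the 133 rose and 3 fell, where 3.36% of all probe sets were higher and 2.6% lower. *Htr1b* (1.88) rose, as did *Ptger4* (0.66), and *Npy1r* (-1.62), *Ptgfr* (-1.55) and *Agtr2* (-0.80) fell. The *Mc5r* difference of -1.70 is larger in size than any decrease among them. *Mc5r* was chosen by its values on these arrays, so its place among the receptors in both comparisons follows in part from that choice. *Ptger4* lost its call without stimulated wild-type array 1 or 2 or knock-down array 1 or 3 (limma adjusted p 0.047, up to 0.166), and *Agtr2* without stimulated wild-type array 1 or 3 or knock-down array 2 or 3 (0.023, up to 0.091). With the block, 3 rose and 5 fell.

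**Figure D4:**
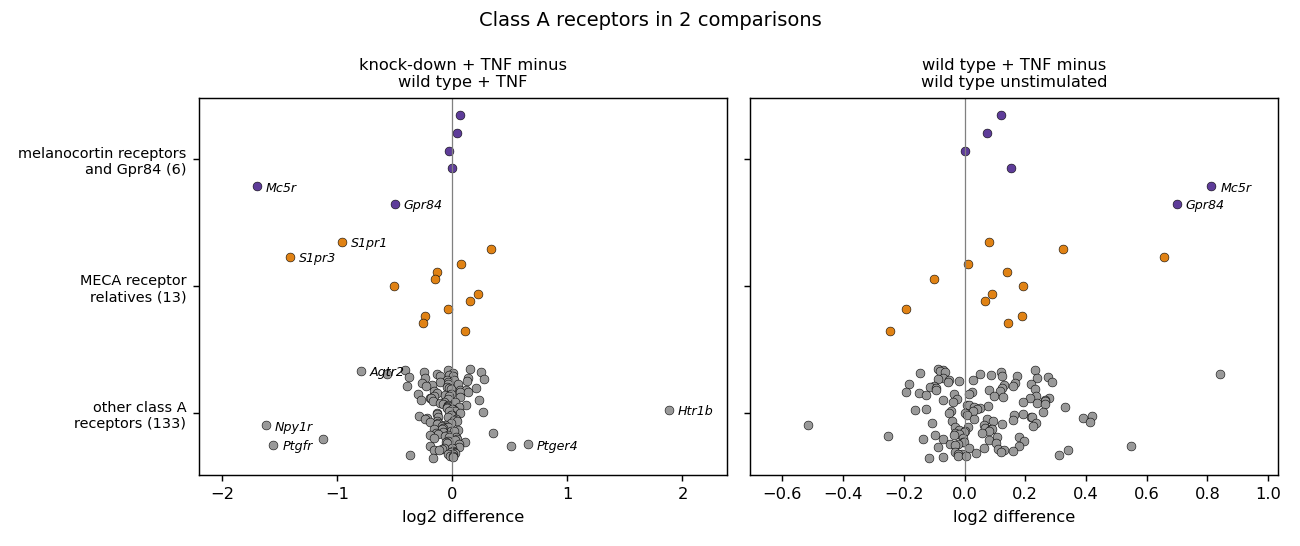
Log2 difference (horizontal axis) of the 6 genes, of 13 MECA relatives and of 133 other class A receptors, for the knock-down under TNF-α at the left and for TNF-α in wild-type cells at the right, each point a gene and vertical position within a row arbitrary. *Mc5r* and *Gpr84*, which were chosen by their values on these arrays, and the receptors that passed the knock-down test are named. *Mc5r* lies furthest left in the left panel, at -1.70, and next to *Bdkrb1* (0.84, unnamed) at the right of the right panel.

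Set against unstimulated wild-type cells, the stimulated knock-down cells had no call among the ligand, antagonist and fatty acid receptor lists by limma. At an unadjusted p under 0.05 the counts were 1, 0 and 0, where 20.5% of all probe sets passed. They were 7 of 14 for the cyclases and protein kinase A, 4 of 10 for the phosphodiesterases and 4 of 16 for the CREB list. For the Gi list 5 of 11 passed at that level, for the MECA relatives 6 of 13 and for the other class A receptors 14 of 133. Within the pathway and receptor lists, calls that held without any one array were those of *Sik1* (1.61, adjusted p = 0.0052), *Gnai1* (1.12, 0.00053), *S1pr2* (0.66, 0.0080) and *Htr1b* (1.72, 0.00048), which rose, and *Adcy1* (-0.67, 0.0093), *Npy1r* (-2.13, 9.2e-06), *Ptgfr* (-1.58, 0.0045) and *Agtr2* (-0.88, 0.012), which fell. *Prkacb* (-0.25, adjusted p = 0.048) lost its call with the replicate block (0.056) and without any one of the 6 arrays compared (up to 0.144), and *Pde4b* (0.61, 0.040) likewise without any one (up to 0.118). Leaving out 1 knock-down array took the call from *Prkar2b* (0.62, 0.028) in all 3 cases (up to 0.102), and from *S1pr1* (-0.88, 0.014) for knock-down array 2 (0.059). *Nr4a2* (0.69, adjusted p = 0.029) lost it without knock-down array 2 or 3 or any unstimulated array (up to 0.098), *Pde7a* (-0.33, 0.025) without knock-down array 1 or 2 or any unstimulated array (up to 0.085), and *Grk4* (0.42, 0.042) without any knock-down array or unstimulated array 1 or 2 (up to 0.133). *S1pr3* (-0.75, 0.023) lost it without knock-down array 1 or 2 or unstimulated array 1 or 3 (up to 0.088), *Ptger4* (0.64, 0.043) without knock-down array 1 or 3 or unstimulated array 1 or 2 (up to 0.152), and *Ptgir* (1.05, 0.018) without knock-down array 3 or unstimulated array 1 or 2 (up to 0.067).

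The chromosome neighbours of the 6 genes were followed as well, 3 protein-coding genes on each side. Of 30 such genes other than members, 0 passed for TNF-α and the differences ran from -0.30 to 0.34. In the knock-down 1 rose and 2 fell, where 3.36% of all probe sets were higher and 2.6% lower. Going along the chromosome, *Mc5r* follows *Ldlrad4*, *Fam210a* and *Rnmt*, with TNF-α differences of -0.02, 0.00 and -0.02 and knock-down differences of 0.20, -0.35 and -0.05. After it come *Mc2r*, *Tcf4* and *Ccdc68*, with TNF-α differences of 0.07, -0.04 and 0.18 and knock-down differences of 0.04, -0.25 and 0.61. Apart from *Fam210a* with the block (limma adjusted p = 0.019, and 0.093 without), none of them passed in these comparisons. Beside *Gpr84*, *Cbx5* (0.42, adjusted p = 0.048) rose in the knock-down, a call that was lost without any one of the 6 arrays compared (adjusted p up to 0.140). *Copz1* (0.33) and *Itga5* (0.50) passed with the block at 0.022 and 0.049, against 0.056 and 0.074 without. The 2 genes that fell were *Def8* beside *Mc1r* (-0.90, adjusted p = 0.00094) and *Lman1* near *Mc4r* (-0.38, adjusted p = 0.023), the second of which lost its call without stimulated wild-type array 1 or 3 or knock-down array 1 or 2 (up to 0.098). Against unstimulated wild-type cells, 2 of the 30 rose and 5 fell in the stimulated knock-down cells. Of all probe sets, 3.64% were higher and 4.62% lower there. *Itga5* beside *Gpr84* (0.77, limma adjusted p = 0.0092) rose, and *Def8* (-1.05, 0.00040), *Aurka* near *Mc3r* (-0.65, 0.0044) and *Mppe1* near *Mc4r* (-0.61, 0.011) fell, each also without any one array. Near *Mc5r* and *Mc2r*, *Ccdc68* (0.79, adjusted p = 0.039) lost its call without knock-down array 1 or 3 or unstimulated array 1 or 3 (up to 0.141) and *Tcf4* (-0.29, 0.044) without any one of the 6 arrays compared (up to 0.133). *Lman1* (-0.40, adjusted p = 0.015) lost it without knock-down array 1 or 2 or unstimulated array 1 (up to 0.058).

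**Figure D5:**
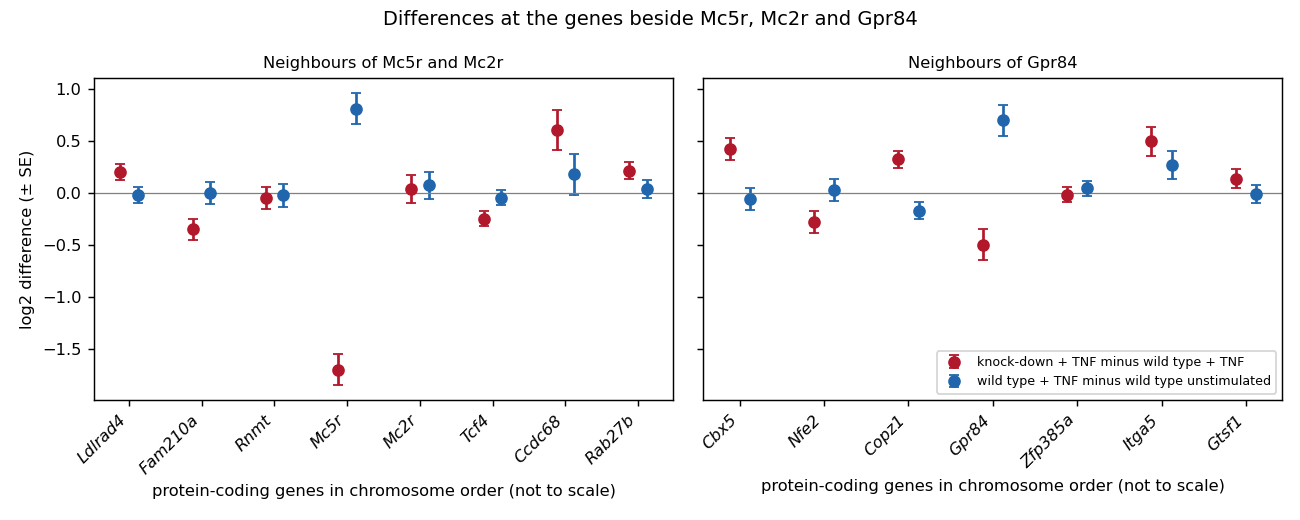
Log2 difference (vertical axis) ± SE at *Mc5r*, *Mc2r* and *Gpr84* and their protein-coding neighbours, in chromosome order and not to scale, for the knock-down under TNF-α (red) and for TNF-α in wild-type cells (blue). *Mc5r* lies at -1.70 and 0.81 and *Gpr84* at -0.50 and 0.70; the TNF-α differences of their neighbours lie within 0.27 of 0, while in the knock-down *Itga5* beside *Gpr84* lies as far from 0 (0.50) as *Gpr84* does.

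Genes with the profile most like each receptor were ranked by Pearson's r over the 9 arrays among 1926 genes with an SD of at least 0.3, as a description. The arrays form 3 groups of 3, so a gene that shares the order of the group means scores high. For *Mc5r* the nearest were *Slc7a2* (r = 0.971), a cationic amino acid transporter, *Ak4* (0.933), *Lcn2* (0.919), the siderophore-binding protein lipocalin 2, *S1pr3* (0.908) and the metallothionein *Mt2* (0.908). *Slc7a2* had means of 7.27 in knock-down + TNF-α, 9.46 in wild type + TNF-α and 8.47 in unstimulated wild type, the same order as *Mc5r*.

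For *Gpr84* the nearest were *Ch25h* (r = 0.936), an enzyme that makes an oxysterol from cholesterol, *Fas* (0.904), a death receptor, *Adm* (0.855), the peptide hormone adrenomedullin, *Sele* (0.847), E-selectin, and *Relb* (0.847), an NF-κB subunit. Their knock-down means lay between both wild-type means: *Ch25h* had 5.13 in knock-down + TNF-α, 7.70 in wild type + TNF-α and 3.94 in unstimulated wild type. *Mc5r* and *Gpr84* were not each other's nearest, with r = 0.617 between them, which placed *Gpr84* 441st for *Mc5r* and *Mc5r* 93rd for *Gpr84*.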

How the data were processed

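Total RNA of 9 samples was hybridised to 1-colour arrays, 1 array per sample. The methods call the 3 samples of a group independent but do not say that they were separate cultures, so p-values measure the spread between these samples, which may be technical. The authors deposited log2 values that RMA had made from the scans, 1 per probe set (version and genome build not given in the sources used here), and these were used as deposited, with no filter. The platform's annotation gave 1 gene symbol to 21789 of 35557 probe sets, several to 1621 and none to 12147; the 23410 with a gene were tested. Promoters and gene order came from RefSeq tables (GRCm38.p6).

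A single linear model with a mean for each group was fitted to the 9 arrays (lmFit and eBayes of limma 3.58.1 in R 4.3.3), with Benjamini-Hochberg adjustment over 23410 probe sets and a threshold of 0.05. The number of arrays limits the precision; the median SE of a difference was 0.10. The members and gene lists were chosen with earlier results of these data known. Named genes are the members, *Med17*, list genes that passed the test (at most 4 per direction), 3 neighbours on each side and the 5 most similar profiles. Genes named for a list's role or range, at an unadjusted p, or called only with the replicate block, were chosen after their values were seen.

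Groups share replicate numbers 1 to 3. Deviations from the group mean correlated between arrays of the same number for TNF-α (correlations 0.298, 0.110 and 0.403) and for the knock-down (0.147, 0.274 and 0.465). They did so less clearly for knock-down against unstimulated (0.151, 0.002 and 0.221). Unlike-numbered arrays 1 and 2 also correlated, at 0.249 and 0.099 for TNF-α and at 0.160 and 0.052 for the knock-down. Unlike pairs with an array numbered 3 had negative values in both. Deviations cancel out within a group, so positive values for some pairs bring negative values for others. The values thus set apart mainly the arrays numbered 3, and do not clearly pair numbers 1 and 2. The fit was repeated with a replicate block. The sources used here do not say what a number marks. Alternatives were other scaling, filters, models and leaving out each array.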

Additional observations from a re-analysis of the deposited data

How the results depend on the processing

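The block by replicate number changed no call of *Mc1r* to *Mc4r*. Over all probe sets, 27 passed for TNF-α, 55 with the replicate block, 13 with every deposited probe set tested, 9 with a model of the 6 arrays compared, and 9 to 19 without 1 array. For the knock-down 1395 passed, 2108 with the block and 738 to 1106 without 1 array, and for knock-down against unstimulated cells 1932, against 1147 to 1944. The cause was not tested. Settings other than leaving out arrays also took calls named above. With every deposited probe set tested, *Adcy1*, *Prkar2b*, *Agtr2*, *Ptger4*, *Cbx5* and *Lman1* lost their knock-down calls. With each array centred on its median *Pde7a* and *Lman1* did, and with the model of the 6 arrays compared *Ptger4* and *Cbx5* did. Against unstimulated cells, *Prkar2b*, *Pde4b*, *Nr4a2*, *Ptger4*, *Ccdc68*, *Grk4*, *S1pr3*, *Prkacb* and *Tcf4* lost theirs with every deposited probe set tested.

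*Mc5r* and *Gpr84* kept their direction under every alternative that gave a value. Without 1 array, *Mc5r* ran from 0.66 to 0.98 for TNF-α, from -1.87 to -1.55 for the knock-down and from -0.94 to -0.80 against unstimulated cells, and *Gpr84* from 0.56 to 0.82, from -0.62 to -0.35 and from 0.08 to 0.32. Differences near 0 changed sign. With each array centred on its median, *Mc3r* had -0.054 for TNF-α and 0.030 for the knock-down, and *Mc4r* 0.055 for the knock-down; with quantile normalization these were -0.023, 0.0016 and 0.036. Without 1 array, TNF-α differences ran from -0.059 to 0.21 for *Mc2r* and from -0.20 to 0.19 for *Mc3r*; knock-down differences from -0.031 to 0.11 for *Mc1r*, -0.093 to 0.17 for *Mc2r*, -0.22 to 0.17 for *Mc3r* and -0.075 to 0.090 for *Mc4r*; and *Mc3r* against unstimulated cells from -0.12 to 0.069.

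A filter on the mean of all arrays at the median signal of 4.51 kept only *Mc5r* of the 6 genes. Its knock-down arrays (4.47, 4.41 and 4.18) lay below that level, so its wild-type arrays carried it past the filter. The filter is thus no separate support for the *Mc5r* differences. The other genes have no value under this filter, and no second probe set of a member exists to try. Signals this low bound a change of the array signal loosely, and 3 arrays a group set the limit.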

Other observations

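Markers of the cell types in which these receptors are best known were followed in the same arrays. Of 12 melanocyte markers 10 lay below the median signal of 4.51, as did 12 of 14 macrophage and neutrophil markers, 7 of 9 adipocyte markers, 5 of 8 adrenal cortex markers and 5 of 9 neuron markers. By limma, 0 markers of the melanocyte, macrophage and neutrophil, adipocyte or adrenal lists passed for TNF-α or for the knock-down. Of the 9 neuron markers 0 passed for TNF-α and 1 for the knock-down. At an unadjusted p under 0.05 the counts of the first 4 lists were 1, 0, 1 and 0 for TNF-α and 1, 2, 1 and 1 for the knock-down. For the neuron list they were 0 and 4. Of all probe sets, 7.1% and 17.4% passed at that level. The summed linear signal of the 14 macrophage and neutrophil markers ran from 187 to 205 in knock-down + TNF-α, from 206 to 211 in wild type + TNF-α and from 208 to 244 in unstimulated wild type, lowest in the knock-down. The sum of the 8 adrenal cortex markers was highest in the knock-down, at 229 to 234, against 204 to 219 in wild type + TNF-α and 208 to 223 in unstimulated wild type. The 9 neuron markers summed to 271 to 317 in knock-down + TNF-α, 316 to 354 in wild type + TNF-α and 294 to 351 in unstimulated wild type. The melanocyte sums overlapped between groups, and so did the adipocyte sums. A sum of linear signals depends most on the brightest genes of a list. Gene by gene, the median difference between knock-down and stimulated wild type was -0.09 for the macrophage and neutrophil list. It was -0.01 for the adrenal cortex list, where *Fdx1* had the highest difference (0.25), and 0.08 for the neuron list. The part of these sums in the receptors' differences was not tested. Among neuron markers, *Gap43*, a growth cone protein, fell by 0.82 in the knock-down (limma adjusted p = 0.0042). *Map2*, of the same list, rose by 0.47 and passed only with the replicate block (limma adjusted p = 0.035, and 0.37 without it). *Lpl*, lipoprotein lipase of the adipocyte list, passed for the knock-down with the replicate block (0.99, adjusted p = 0.014, and 0.062 without it).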
